A study of Mus musculus with 7 samples.

Results

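The interferon-stimulated genes described here are Ifit1, Ifit2, Ifit3, Ifit3b, Ifi44, Isg15, Usp18, Mx1, Mx2 and Ifitm3, 10 genes that cells switch on after sensing type I interferon. They were chosen by name from the array annotation. Of the 10, 9 had a row, 1 each, among 19494 genes with a symbol, and Ifi44 was not analysed here. RNA came from splenic cells positive for both CD45 and CD11b, taken from mice after allogeneic hematopoietic cell transplantation (allo-HCT), in which donor T cells attack the host and cause acute graft-versus-host disease (aGVHD). Irradiated BALB/cAnN hosts received bone marrow and T cells from C57BL/6N donors, all labeled wild type. The 4 ROCK1/2-inhibitor mice (R1 to R4) were injected with Y-27632 at 8 mg/kg from day 4 for 10 days. The 3 vehicle mice (V2 to V4) were given PBS on the same schedule, and both groups had therefore undergone irradiation and allo-HCT. 1 array was hybridized per mouse, the labels gave no age for single mice and the methods only a range for all mice, and the sort did not separate donor cells from host cells. Y-27632 inhibits both ROCK isoforms and was given to the whole animal.

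The gate markers were bright on every array. Itgam, which encodes CD11b, ranged between 8.56 and 9.15 log2 intensity in ROCK1/2-inhibitor mice and between 9.08 and 9.66 in vehicle mice. Ptprc, which encodes CD45, ranged between 9.18 and 9.63 in ROCK1/2-inhibitor mice and between 8.56 and 9.96 in vehicle mice. A label field describes CXCL12-abundant reticular cells, yet all 8 stromal reticular markers had means below the lowest upper quartile of any array (3.35), with Cxcl12 between 1.82 and 2.58 in ROCK1/2-inhibitor mice and between 1.98 and 2.45 in vehicle mice. The array medians lay between 2.14 and 2.19 and the upper quartiles between 3.35 and 3.68.

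Type I interferons bind the IFNAR1 and IFNAR2 receptor chains. The kinases JAK1 and TYK2 then pass the signal to STAT2 and IRF9, parts of the complex ISGF3, which binds interferon-stimulated response elements (ISREs) in promoters. The IFIT proteins bind foreign or unmethylated RNA ends, ISG15 is a ubiquitin-like modifier, USP18 removes ISG15 and blocks signaling at IFNAR2, MX proteins are dynamin-like antiviral GTPases, and IFITM3 impedes viral entry through endosomal membranes.

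The ISRE core, GAAA followed by 2 bases of any kind and another GAAA, was searched on both strands in RefSeq promoter windows. These windows of the mouse build GRCm38.p6 run from 250 bases before to 50 bases after an annotated start site. A gene can have several such sites, and a site can lie inside the gene. The core occurred in 1131 of 32851 windows (3.44%), and in 618 of the 15683 tested genes that had a window (3.94%). Of the 7 named genes with a window, 5 held the motif (71.4%), namely Isg15, Ifit1, Ifit3, Ifit3b and Ifitm3. The windows of Ifit2 and Ifi44 held no match, and Usp18, Mx1 and Mx2 had no entry. The Ifit2 gene begins at chr19:34550550 and its windows at 34550444 and 34550838, so bases farther upstream were not searched. Ifit3 and Ifit3b begin at chr19:34583119 and chr19:34607530, but their windows begin inside them, at 34583279 and 34607707. The stretches below are shown because the differences of these motif-bearing genes lay on both sides of 0 in the comparison that follows. Ifitm3 alone lay below 0, none of these genes was called there, and the intervals of the others included 0. The stretches are written 5′ to 3′ on the strand of the gene, with every base of a match in capitals. The stretch of Isg15 lies on the minus strand at chr4:156200839-156200938, that of Ifit1 on the plus strand at chr19:34640749-34640848, that of Ifit3 on the plus strand at chr19:34583339-34583438 and that of Ifitm3 on the minus strand at chr7:141010715-141010814.
Isg15: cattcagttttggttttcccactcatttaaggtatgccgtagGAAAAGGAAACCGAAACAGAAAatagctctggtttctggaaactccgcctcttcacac
Ifit1: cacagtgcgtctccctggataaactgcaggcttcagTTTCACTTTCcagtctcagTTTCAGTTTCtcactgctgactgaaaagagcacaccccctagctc
Ifit3: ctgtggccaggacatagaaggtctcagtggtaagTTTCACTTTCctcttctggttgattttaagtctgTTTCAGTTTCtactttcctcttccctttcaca
Ifitm3: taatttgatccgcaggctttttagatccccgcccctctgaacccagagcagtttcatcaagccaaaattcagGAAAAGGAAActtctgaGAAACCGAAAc

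In Isg15, 3 overlapping matches formed 1 block, with first bases 78, 72 and 66 bases before the start. Ifit1 and Ifit3 each held 2 separate matches in the reverse orientation, so the capitals read TTTC, 2 bases and TTTC. The corresponding 100 bases of Ifit3b, at chr19:34607735-34607834, were identical to those of Ifit3 at 100 of 100 positions. In Ifitm3 both matches lay after the annotated start, in the last 30 bases printed. A match is a run of letters and was not measured as a bound site.

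The comparison asked whether ROCK1/2 inhibition altered the expression of these genes in splenic myeloid cells during aGVHD. No measured member passed the threshold, an adjusted p below 0.05 in limma over 22139 transcript clusters (the array's gene-level units), although 494 transcript clusters did (2.23%), 234 higher (1.06%) and 260 lower (1.17%) with the inhibitor. At an unadjusted p below 0.05 there were 3 members, Usp18 and Ifitm3 with lower values and Mx2 with higher values in ROCK1/2-inhibitor mice, against 15.3% of all transcript clusters. The same 3 were the members whose groups did not overlap, against 13.3% of all transcript clusters (7.03% lower and 6.22% higher). Of the 9 log2 fold changes 7 lay above 0 and 2 below, with a median of 0.08, and the median over all transcript clusters was 0.0049. In sorted bulk samples, fewer cells of a type and less RNA per cell cannot be told apart.

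**Figure D1:**
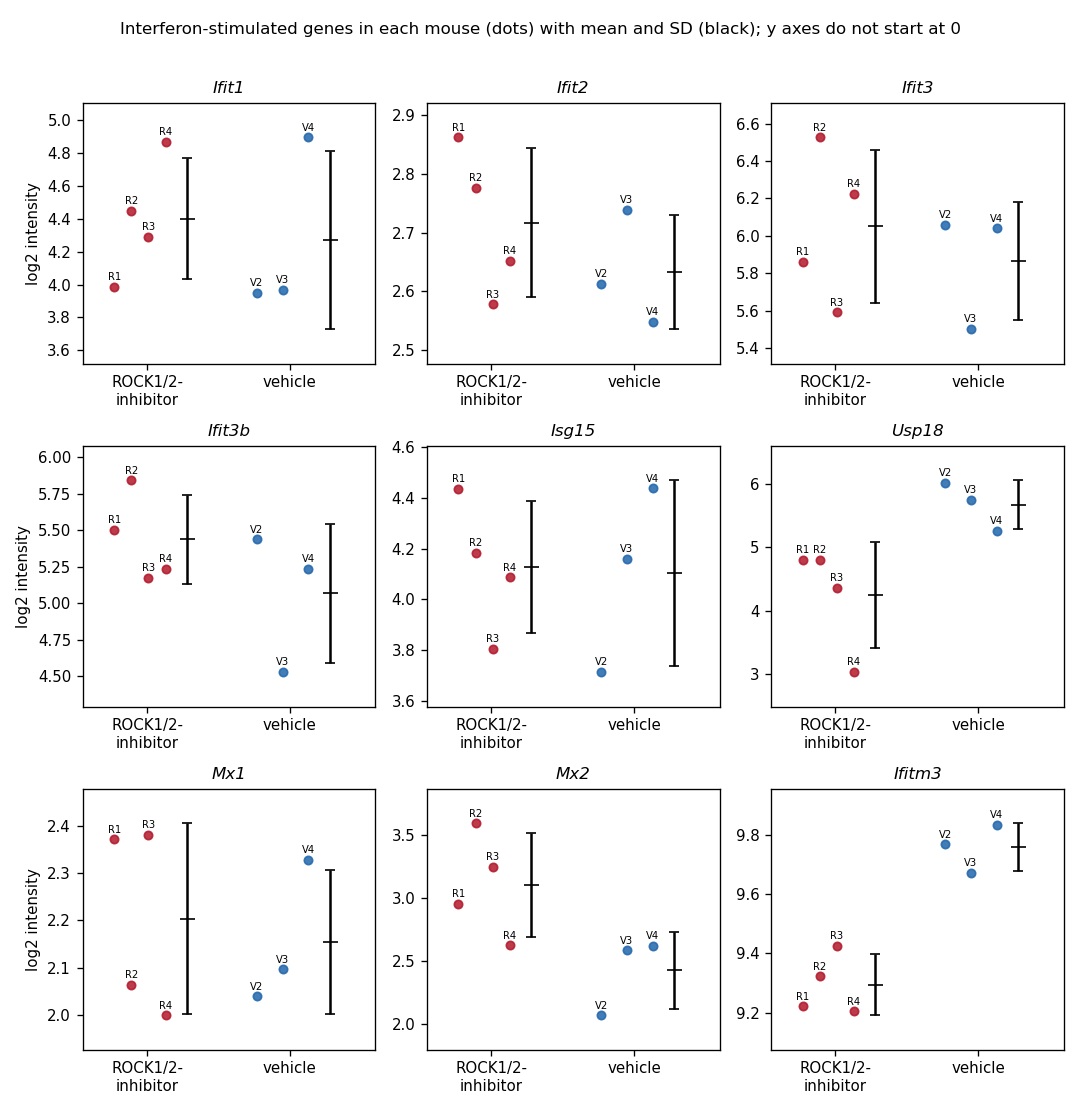
Log2 intensity of each measured interferon-stimulated gene in every mouse (dots), with ROCK1/2-inhibitor mice left and vehicle mice right and the group mean ± SD in black. The groups separate for Usp18, Mx2 and Ifitm3, by 0.0053 for Mx2, and intermingle for the other 6 genes.

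The 4 IFIT genes lie in 1 cluster on chromosome 19, and none passed the threshold. Ifit1, whose product recognizes RNA lacking cap methylation, had log2 intensities of 3.99, 4.45, 4.29 and 4.87 in ROCK1/2-inhibitor mice and of 3.95, 3.97 and 4.90 in vehicle mice. The highest and the lowest mouse were both vehicle mice, and the means were 4.40 ± 0.37 and 4.27 ± 0.54 (SD, n = 4 and n = 3). The log2 fold change was 0.13 ± 0.28 (SE) with a 95% interval of -0.50 to 0.76 and an adjusted p of 0.899 (limma).

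Ifit2, which encodes an RNA-binding member with pro-apoptotic activity, was dim, at 2.86, 2.78, 2.58 and 2.65 in ROCK1/2-inhibitor mice and 2.61, 2.74 and 2.55 in vehicle mice. All 7 values were below every array's upper quartile, and the log2 fold change of 0.08 had an interval of -0.24 to 0.41. Ifit3, another IFIT family gene, measured 5.86, 6.53, 5.59 and 6.23 in ROCK1/2-inhibitor mice and 6.06, 5.50 and 6.04 in vehicle mice. Here R2 was highest and V3 lowest, and the log2 fold change was 0.18 with an interval of -0.37 to 0.74. Ifit3b, a near-identical copy of Ifit3, measured 5.50, 5.84, 5.17 and 5.23 in ROCK1/2-inhibitor mice and 5.44, 4.53 and 5.24 in vehicle mice. It again had R2 highest and V3 lowest, with a log2 fold change of 0.37, an interval of -0.19 to 0.93 and an adjusted p of 0.579. Probes may not tell Ifit3 from Ifit3b, so these 2 rows are uncertain as separate measurements.

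Relative to the vehicle mean, the median of the 4 IFIT genes was 0.11, 0.42, -0.02 and 0.26 log2 units in R1 to R4 and 0.09, -0.34 and 0.17 in V2 to V4. The mice of both groups lay on either side of 0. Among 8 measured relatives of the IFIT and IFITM families none passed the threshold. The smallest adjusted p belonged to Ifit1bl2, an Ifit1-like gene. It measured 7.003, 7.43, 7.16 and 7.12 in ROCK1/2-inhibitor mice and 6.84, 6.24 and 6.76 in vehicle mice. Its log2 fold change was 0.57 ± 0.19 (SE), with an adjusted p of 0.175 (limma). Ifitm5, a bone-associated family member, and Ifitm6, a myeloid member, followed with log2 fold changes of 0.29 and -0.23 and adjusted p values of 0.448 and 0.687.

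Neither Isg15 nor Usp18, the gene of its protease, passed the threshold, but only Usp18 had groups that did not overlap. Isg15 measured 4.43, 4.18, 3.81 and 4.09 in ROCK1/2-inhibitor mice and 3.71, 4.16 and 4.44 in vehicle mice. The ranges covered each other almost entirely, and the log2 fold change of 0.02 ± 0.21 (SE) had an interval of -0.46 to 0.51 and an adjusted p of 0.982. Usp18 measured 4.80, 4.80, 4.36 and 3.03 in ROCK1/2-inhibitor mice and 6.01, 5.75 and 5.26 in vehicle mice. All 4 inhibitor mice were below all 3 vehicle mice, by at least 0.458 log2 units, and R4 was farthest down. The means were 4.25 ± 0.84 and 5.67 ± 0.38, and the log2 fold change was -1.43 ± 0.41 (SE), a ratio of 0.371 with a 95% interval of 0.196 to 0.703. The adjusted p of 0.113 missed the threshold (unadjusted limma p 0.00646), and without R4 the log2 fold change was -1.02. Isg15 carries 3 overlapping ISRE cores, shown above, and Usp18 had no entry among the windows.

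**Figure D2:**
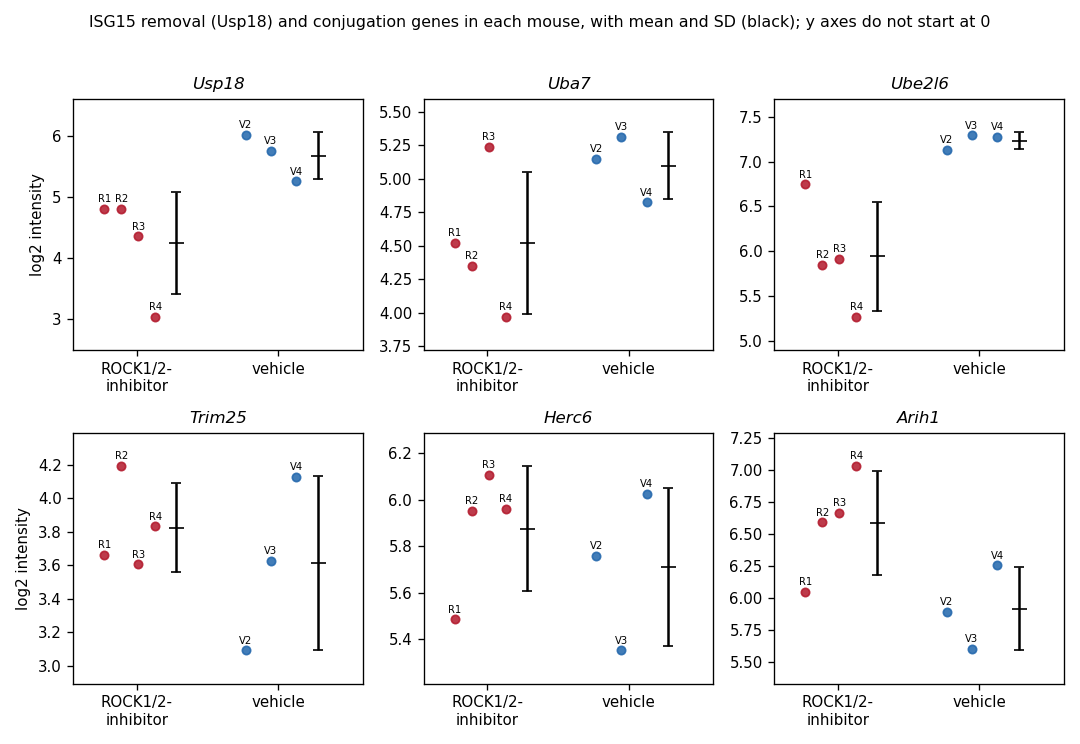
Log2 intensity in every mouse of Usp18, which removes ISG15, and of 5 genes that attach it, with ROCK1/2-inhibitor mice left, vehicle mice right and group mean ± SD in black. Usp18 and Ube2l6 have no inhibitor mouse within the vehicle range, and Uba7, Trim25, Herc6 and Arih1 overlap.

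Of the genes that attach ISG15 to proteins 0 of 5 passed the limma threshold. At an unadjusted p below 0.05 there were 2, 1 lower and 1 higher, against 15.3% of all transcript clusters. Ube2l6, the conjugating enzyme, had the smallest adjusted p. It measured 6.75, 5.85, 5.91 and 5.26 in ROCK1/2-inhibitor mice and 7.13, 7.29 and 7.28 in vehicle mice, with no overlap and again with R4 lowest. Its log2 fold change was -1.29 ± 0.30 (SE) with an adjusted p of 0.058. Arih1, a ligase that cooperates with ISG15 and cullin pathways, measured 6.05, 6.59, 6.66 and 7.03 in ROCK1/2-inhibitor mice and 5.89, 5.60 and 6.26 in vehicle mice, with R1 inside the vehicle range (log2 fold change 0.67, adjusted p 0.225). Uba7, the activating enzyme, differed by -0.58 log2 units (adjusted p 0.382). Trim25, an ISG15 ligase, and Herc6, the main ISG15 ligase in mice, had log2 fold changes of 0.21 and 0.16.

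Mx1 was near the array medians, and Mx2 reached the upper quartile of the array in R2 alone. RefSeq lists both as transcribed pseudogenes in the C57BL/6J build, and most laboratory strains carry defective MX alleles. Mx1 measured 2.37, 2.06, 2.38 and 2.00 in ROCK1/2-inhibitor mice and 2.04, 2.10 and 2.33 in vehicle mice, with complete overlap and a log2 fold change of 0.05 (interval -0.32 to 0.42). Mx2 measured 2.95, 3.59, 3.25 and 2.63 in ROCK1/2-inhibitor mice and 2.07, 2.59 and 2.62 in vehicle mice. R2 and R3 were highest, but R4 exceeded V4 by only 0.0053. The log2 fold change was 0.68 ± 0.25 (SE), a ratio of 1.60, with an interval of 0.13 to 1.23 and an adjusted p of 0.213.

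Ifitm3 was bright on all arrays and varied little within groups. It measured 9.22, 9.32, 9.43 and 9.20 in ROCK1/2-inhibitor mice and 9.77, 9.67 and 9.83 in vehicle mice. Every inhibitor mouse was at least 0.246 below every vehicle mouse, and the means were 9.29 ± 0.10 and 9.76 ± 0.080. The log2 fold change was -0.46 ± 0.14 (SE), a ratio of 0.725, with an interval of -0.78 to -0.15 and an adjusted p of 0.130. The family members Ifitm1 and Ifitm2 had log2 fold changes of -0.12 and 0.04, and both overlapped between groups.

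**Figure D3:**
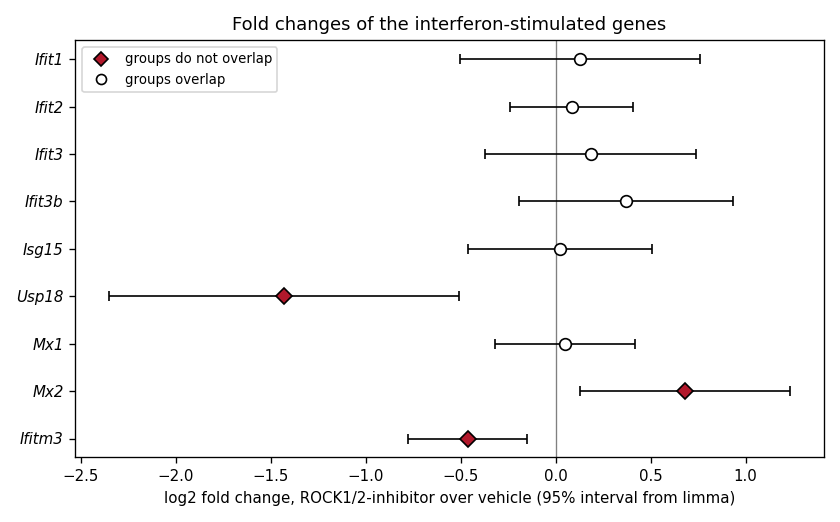
Log2 fold change (ROCK1/2-inhibitor over vehicle) of the 9 measured genes with 95% limma intervals. Diamonds mark the 3 genes whose groups do not overlap, and the intervals of the other 6, drawn as open circles, include 0.

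Across mice the median of the 9 genes, relative to the vehicle mean, was 0.22, 0.14, -0.05 and 0.02 log2 units in R1 to R4 and -0.02, -0.06 and 0.17 in V2 to V4. V4 exceeded 3 of the 4 inhibitor mice. Usp18 did not share this profile. Its values ran R4, R3, R2, R1, V4, V3, V2 from lowest to highest, with R1 and R2 level to 2 decimals. After the values were seen, this order was looked up in all genes with a symbol, with R1 and R2 allowed in either order. It occurred in 63 of 19494 genes (0.323%), Usp18 among them, and in 0 of the other 8 members. On the interferon pathway lists 4 of 118 genes had it (3.39%), Irf7, Irf8, Cmpk2 and Oas3. The order needs every inhibitor mouse below every vehicle mouse, as in 7.03% of all transcript clusters and 21 of these 118 genes. The lists were written with earlier results of these data known, so these shares are a description and not a test. With R1 above R2 required as well, 39 genes, Usp18 included, and, on the lists, Irf7 and Irf8 had the order. Irf7, the factor that amplifies interferon production, measured 6.59, 6.06, 5.49 and 4.20 in ROCK1/2-inhibitor mice and 7.95, 7.34 and 6.63 in vehicle mice. R1 lay just below V4 and R4 far below the rest, and the log2 fold change was -1.72 ± 0.52 (SE) with an adjusted p of 0.133.

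**Figure D4:**
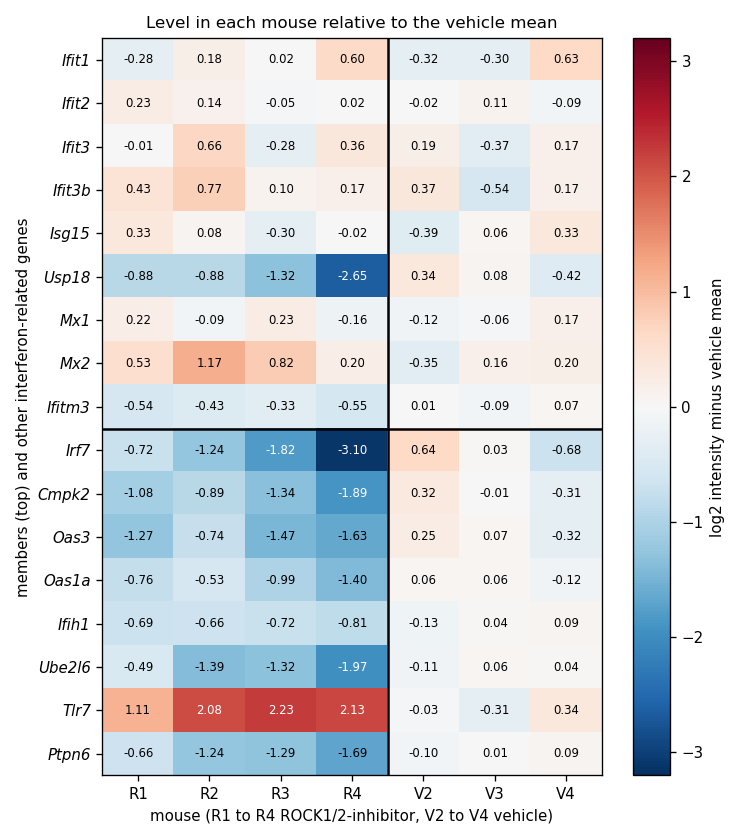
Log2 intensity minus the vehicle mean for the 9 members (above the line) and 8 other interferon-related genes (below it) in each mouse, ROCK1/2-inhibitor mice left and vehicle mice right. Usp18 and Irf7 reach -2.65 and -3.10 in R4. The IFIT genes, Isg15 and Mx1 stay within 0.7731 of the vehicle mean in every inhibitor mouse.

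The rest of the pathway was described through 9 lists of 118 measured genes, of which 1 rose and 4 fell, against 2.23% of all transcript clusters called. That count was 13 without R1, 4 without V4 and 0 without any 1 of the other 5 mice. Upstream of the members, the 19 measured interferon genes held no call, and 18 had a mean below the lowest array upper quartile. Ifna6, an interferon alpha gene, had the smallest adjusted p of them (0.283), and Ifnb1, for interferon beta, ranged between 1.67 and 2.41 in ROCK1/2-inhibitor mice and between 1.77 and 2.03 in vehicle mice. No receptor passed (6 measured). Ifnlr1, for the interferon lambda receptor, differed by -1.47 log2 units (adjusted p 0.075), and Ifnar2 and Ifnar1 had 0.27 (adjusted p 0.501) and -0.09 (adjusted p 0.860). Of the kinases and ISGF3 factors none of 5 passed, with Stat2 at -0.63 (adjusted p 0.187), Jak2 at 0.64 (adjusted p 0.200) and Irf9 at -0.09 (adjusted p 0.895).

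Genes that sense nucleic acids and induce interferon moved in both directions (1 rose and 1 fell of 16). Tlr7, the endosomal single-stranded RNA receptor, rose, with 6.75, 7.72, 7.86 and 7.76 in ROCK1/2-inhibitor mice and 5.60, 5.33 and 5.97 in vehicle mice. The log2 fold change was 1.89 ± 0.28 (SE) with an adjusted p of 0.021. Ifih1, the cytosolic RNA sensor MDA5, fell, with 5.55, 5.59, 5.52 and 5.44 in ROCK1/2-inhibitor mice and 6.12, 6.29 and 6.34 in vehicle mice. Its log2 fold change was -0.72 ± 0.14 (SE) with an adjusted p of 0.037, and the groups did not overlap. Myd88, the adaptor of most Toll-like receptors, differed by -0.84 log2 units (adjusted p 0.087).

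Among 7 feedback inhibitors 1 fell. Ptpn6, for the phosphatase SHP-1, measured 7.57, 6.99, 6.93 and 6.53 in ROCK1/2-inhibitor mice and 8.12, 8.23 and 8.31 in vehicle mice, a log2 fold change of -1.22 ± 0.23 (SE) with an adjusted p of 0.034. Socs1, which inhibits JAK kinases, differed by -0.86 log2 units (adjusted p 0.059), and Ptpn2, a phosphatase of JAK and STAT proteins, 0.89 (adjusted p 0.168).

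Of 37 other type I interferon targets 2 fell and none rose, and the median log2 fold change was -0.23. Oas3, which makes the 2-5A messenger that activates RNase L, measured 3.13, 3.66, 2.93 and 2.77 in ROCK1/2-inhibitor mice and 4.65, 4.47 and 4.09 in vehicle mice. The groups did not overlap, with a log2 fold change of -1.28 ± 0.23 (SE) and an adjusted p of 0.032. Cmpk2, a mitochondrial nucleotide kinase encoded beside Rsad2, measured 6.26, 6.45, 6.00 and 5.44 in ROCK1/2-inhibitor mice and 7.66, 7.32 and 7.02 in vehicle mice. Its log2 fold change was -1.30 ± 0.26 (SE) with an adjusted p of 0.040, whereas Rsad2, for viperin, had -0.12 (adjusted p 0.882). Oas1a, an OAS family member, had -0.92 (adjusted p 0.056). None of 15 interferon-gamma targets passed, with a median of 0.36, and the smallest adjusted p values belonged to the immunity-related GTPase genes Igtp (-0.66, adjusted p 0.055) and Iigp1 (0.79, adjusted p 0.071) and to the guanylate-binding protein gene Gbp4 (0.59, adjusted p 0.147).

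**Figure D5:**
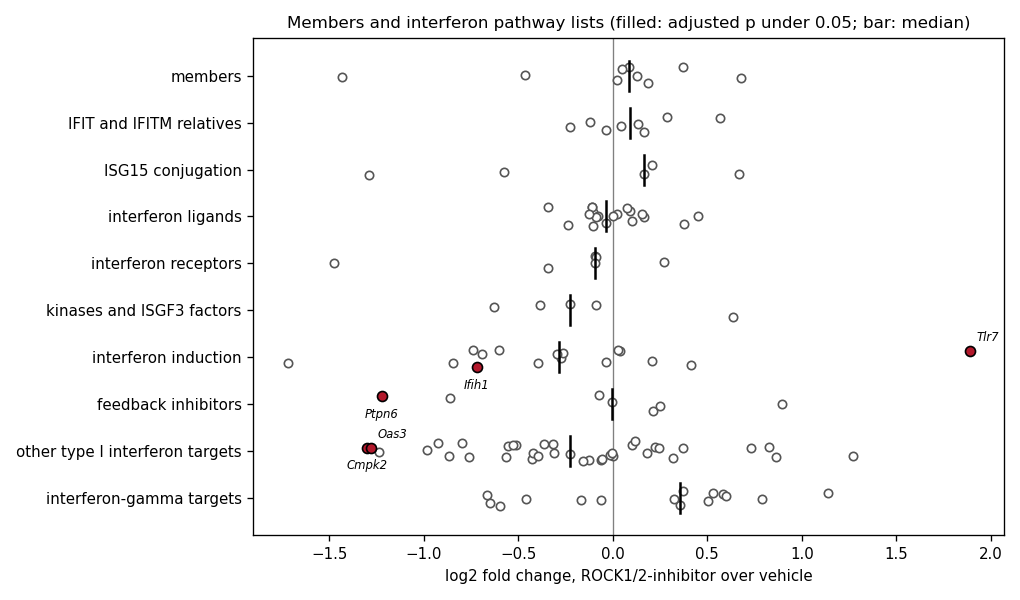
Log2 fold change (ROCK1/2-inhibitor over vehicle) of each measured member and of each gene of the 9 interferon pathway lists, with list medians as bars and genes with an adjusted p below 0.05 filled and named. The members carry no filled point, and the filled points of the lists are Tlr7 above 0 and Ifih1, Ptpn6, Oas3 and Cmpk2 below 0.

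The genes whose pattern over the 7 arrays was most like the mean of the 9 members were, by Pearson's r, Adamts4 (0.986), Mmut (0.958), Irgm1 (0.957), Zbtb2 (0.957), Glb1l3 (0.950), Ikbip (0.949), Rab31 (0.947), Tsr2 (0.945), Junb (0.944) and Mael (0.944). Irgm1 alone among them is on a pathway list. The 10 were picked for the highest r among many genes over only 7 arrays, and the r to be reached by chance was not tested. Adamts4, Glb1l3, Tsr2 and Mael had means below the lowest array median (2.14), so their likeness rests on dim values. The mean of all 9 was highest in R2 and then V4, and lowest in R4 and then R3, 2 mice in which Usp18 was far down. Without Usp18, an alternative chosen after seeing the data, the mean of the other 8 was lowest in V3 and V2 instead, 0 of the 10 genes stayed among the 10 most alike, and their r lay between 0.523 and 0.746. The list above therefore changes when Usp18 is left out, and no other member was left out for comparison. The points share normalization.

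Some markers of other myeloid states also differed between the groups, where 2.23% of all transcript clusters were called. Of 8 measured neutrophil primary granule genes, made by immature neutrophils, 4 fell (Mpo, Prtn3, Fcnb and Cebpe), and their summed intensity was 311 to 706 in ROCK1/2-inhibitor mice and 997 to 1333 in vehicle mice. Of 9 secondary granule genes 3 fell (Ltf, Cd177 and Itgb2l), with sums of 14876 to 15685 in ROCK1/2-inhibitor mice and 17576 to 21260 in vehicle mice. The other 6 were not called, and the 9 log2 fold changes ranged from -1.25 to 0.06 with a median of -0.24. Of 9 inflammatory monocyte genes 2 rose (Ms4a4c and Clec4a3), with sums of 2695 to 4225 in ROCK1/2-inhibitor mice and 2262 to 3575 in vehicle mice, while Ly6c2 and Fn1 of the same list had log2 fold changes of -0.16 and -0.03. Of 8 mature neutrophil genes Clec4d alone rose, and the sums were 11951 to 14076 in ROCK1/2-inhibitor mice and 11219 to 12654 in vehicle mice. None of 10 macrophage, 8 conventional dendritic cell, 6 eosinophil, 7 T cell, 6 B cell, 6 NK cell or 3 erythroid markers was called in limma. At an unadjusted p below 0.05 there were 1, 0, 0, 0, 0, 1 and 2, against 15.3% of all transcript clusters. None of 8 plasmacytoid dendritic cell markers was called, 7 were dim, and the defining marker Siglech ranged between 1.74 and 2.03 in ROCK1/2-inhibitor mice and between 1.51 and 2.18 in vehicle mice. The part of these cell markers in the values of Usp18, Mx2 and Ifitm3 was not tested.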

How the data were processed

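RNA from CD45+CD11b+ spleen cells of 7 mice was profiled on Clariom S Mouse arrays, 1 array per mouse. The deposited values are log2 intensities per transcript cluster, which the authors made with RMA (background correction, quantile normalization and probe summarization) in the R package oligo, version not given in the sources used here. Quantile normalization gives all arrays a near-equal distribution, so only differences relative to other genes are measured, and the array number limits the precision. Methods and labels name different RNA kits.

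Groups were taken from sample titles. Of 22203 rows, 64 with other identifiers were left out, and 22139 transcript clusters were tested with limma 3.58.1 (lmFit and eBayes, two-sided, R 4.3.3) and Benjamini-Hochberg adjustment at 0.05. Fold changes are ROCK1/2-inhibitor over vehicle. Symbols came from the platform annotation, with the brightest row kept for the 33 symbols with several, and each measured member had 1 row. Named genes were the members, the list genes past the threshold, up to 3 genes per pathway list with the smallest p, and the 10 genes most correlated with the member mean. Other genes were named after their values were seen. The members and lists were chosen with earlier results of these data known. The fit was tested on simulated data. Promoters and gene types came from RefSeq GRCm38.p6. Alternatives covered limma settings, array weights, rescaling, row filters, a replicate block and leaving out each mouse. Python 3.11.15, pandas 2.3.3 and matplotlib 3.10.9 were used.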

Additional observations from a re-analysis of the deposited data

Results flagged for a closer look

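Tlr7 in R1 (6.75 log2 intensity) lay apart from R2, R3 and R4 (7.72, 7.86 and 7.76), with a gap to its nearest neighbor of 0.87 of the range of the ROCK1/2-inhibitor group. R1 nevertheless exceeded all vehicle mice (5.60, 5.33 and 5.97). Itgam was likewise lowest in R1 (8.56, against 9.15, 9.07 and 9.06 in R2 to R4, a gap of 0.854 of the range). Siglech was lowest in R1 as well (1.74, against 1.99, 2.03 and 1.99, a gap of 0.837), at a dim level. Among 74 members and other named genes and the member median, these 3 passed Dixon's limit for 4 samples, and chance sets off about 1 in 20 such groups. Usp18 and Irf7 in R4 did not pass it, with gaps of 0.749 and 0.540 of the range.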

How the results depend on the processing

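Under 16 alternatives no measured member passed the threshold in limma, except Usp18 in the fit with a replicate block (log2 fold change -1.61, adjusted p 0.0172), which gave 1 member called. That fit called 964 of all transcript clusters, against 494 without the block. No vehicle mouse had number 1, so R1 was alone in its block and did not inform the group difference. The fold changes of the members in that fit equal those without R1 (-1.61 for Usp18 in both). Same-numbered mice did not deviate together (correlations 0.096, -0.128 and -0.032), mice did not all correlate best with their own number, and the numbers were treated as names. Over all alternatives the log2 fold change of Usp18 ranged between -1.64 and -1.02 (adjusted limma p 0.0172 to 0.344). That of Ifitm3 ranged between -0.62 and -0.38 and that of Mx2 between 0.50 and 0.84. The unadjusted limma p was below 0.05 in all 16 alternatives for Usp18 and Ifitm3, and in 13 of the 16 for Mx2. Isg15 turned to -0.027 with array weights and to -0.078 with the block, and Mx1 to -0.0066 with the block. Leaving out 1 mouse at a time gave -0.032 to 0.44 for Ifit1, -0.17 to 0.19 for Isg15, -0.0099 to 0.14 for Mx1, 0.0019 to 0.34 for Ifit3, 0.10 to 0.55 for Ifit3b and -0.0083 (without V2) to 0.19 (without V4) for the median of the members. The same step gave 2 to 1035 called transcript clusters (2 without R2, R4 or V2, 4 without R3, 34 without V3, 534 without V4 and 1035 without R1). The 5 calls on the pathway lists became 8 with trend and robust settings, with cyclic loess or without the dimmest 25%, 9 with quantile normalization, 10 with the block and 0 to 13 with 1 mouse left out. The causes were not tested. The dimmest row per symbol gave no other value, since each member had 1 row. Mx1 near the array medians and Ifit2 below every upper quartile were dim, where a difference may not be detectable. Mx2 was also dim, and reached the upper quartile of the array in R2 alone.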

Other observations

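The ISRE core was also counted in the promoter windows of other gene sets, as a description. It occurred in 10 of 13 interferon-gamma targets with a window (76.9%) and in 9 of 28 other type I interferon targets (32.1%). Of the genes with a window called in the comparison, 7 of 157 that rose (4.46%) and 5 of 192 that fell (2.6%) held it, and the share over all tested genes with a window was 3.94%.

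The interferon-gamma-induced chemokine gene Cxcl9, chosen after its values were seen, measured 6.81, 5.81, 6.45 and 5.93 log2 intensity in ROCK1/2-inhibitor mice and 4.26, 5.20 and 5.87 in vehicle mice. R2 lay below V4, and the log2 fold change was 1.14 ± 0.37 (SE) with an adjusted p of 0.168 (limma). Samd9l, an interferon-induced growth regulator also chosen after its values were seen, measured 8.27, 9.24, 9.20 and 9.53 in ROCK1/2-inhibitor mice and 7.49, 7.51 and 8.37 in vehicle mice. R1 lay below V4, and the log2 fold change was 1.27 with an adjusted p of 0.080. Both values were higher on average with the inhibitor and neither passed the threshold.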
